A study of Homo sapiens with 12 samples.

Results

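STC1 and STC2, the genes of the stanniocalcins, were followed through the 4 treatment groups of a cutaneous T cell lymphoma line. They are 2 of the 59050 gene names in the deposited count table and were taken from it by name. They were chosen by their measured levels in all 4 groups, in CPM (counts scaled to the size of the library, TMM-adjusted), so these levels and their differences are given as a description, without a test. The cells were MyLa (MYLA), an established line, and every result is from this 1 line. All cultures received 20 ng/mL interleukin-2 and the same volume of DMSO, and were treated for 24 h. The groups were DMSO alone, 3.2 nM romidepsin, 5.7 uM afatinib dimaleate, and both drugs together (the combination), with 3 libraries each. Romidepsin inhibits histone deacetylases, and afatinib inhibits kinases of the epidermal growth factor receptor family.

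Stanniocalcins are secreted glycoproteins named after the corpuscles of Stannius, fish glands whose hormone lowers calcium uptake. In mammals they act mostly near the cells that make them, and have been tied to calcium and phosphate handling. Both can inhibit the protease PAPP-A, which cuts insulin-like growth factor (IGF) binding proteins such as IGFBP4 and so frees IGF. STC2 is known as a gene switched on in endoplasmic reticulum (ER) stress through the transcription factor ATF4, and both genes are known to respond to low oxygen.

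Total counts were 8972228 to 12696653 per library, so that 3 counts equalled 0.229 to 0.344 CPM. Nothing in the labels tells if the 3 libraries of a treatment are separate cultures or repeats of 1, so spreads and p-values below measure only the variation between these libraries, which may be technical. Among defining T cell markers, CD2 was at 154 CPM and TRAC at 19.8 CPM in DMSO, whereas CD3E had at most 4 counts and CD4 at most 1 count in any library. KRT5, a keratin of basal keratinocytes, had 43 to 126 counts in DMSO libraries 1 and 2, afatinib library 3 and combination library 1, and at most 1 count in the other libraries. The log2 fold changes of STC1 and STC2 are therefore also given without these 4 libraries. That leaves DMSO library 3 as the only DMSO library. Calls lost in such a fit, against DMSO or for an interaction, may come from the single control and not from the KRT5 reads.

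STC1 was near the floor of detection in DMSO and in afatinib, and was among the better expressed genes in romidepsin and in the combination. The gene lies on the minus strand of chromosome 8 at 23841929 to 23854806 (GRCh38), has 4134 exonic bases, and overlaps no other gene of the table. The DMSO libraries held 1, 6 and 6 STC1 counts, or 0.0834, 0.606 and 0.526 CPM. The afatinib libraries held 3, 4 and 4 counts, or 0.276, 0.379 and 0.321 CPM. These 6 libraries overlapped, and DMSO library 1 was the lowest.

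With romidepsin, the STC1 counts were 968, 898 and 1092, or 83.2, 102.9 and 89.1 CPM. With the combination they were 1024, 1314 and 1264, or 92.3, 100.4 and 96.6 CPM. Every library with romidepsin, alone or combined, was above every library without it, and the ranges of both sets were far apart. The mean STC1 level was 0.405 ± 0.281 CPM in DMSO, 0.325 ± 0.0513 CPM in afatinib, 91.7 ± 10.1 CPM in romidepsin and 96.4 ± 4.03 CPM in the combination (SD, n = 3 libraries each). In this order of levels, neither afatinib and DMSO nor romidepsin and the combination differed beyond their spread.

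From the summed counts, STC1 was 232-fold higher in romidepsin than in DMSO, with a 95% interval of 136 to 437. The width comes mostly from the 13 counts of the 3 DMSO libraries together, and intervals of this kind cover counting error only. The fitted log2 fold change of STC1 was 7.83 (SE 0.18, derived from the F statistic of the test). A fit with DESeq2 gave 7.88 with an SE of 0.41, so the SE of 0.18 is likely too small. The edgeR value was 7.34 without DMSO library 1, 8.21 without DMSO library 2, and 7.46 without the 4 libraries with KRT5 reads. In this comparison 62.6% of the 16208 tested genes passed edgeR's quasi-likelihood test at an adjusted p of 0.05, 31.1% upward and 31.5% downward, and 10 genes had a higher log2 fold change than STC1.

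Between afatinib and DMSO the STC1 counts gave a ratio of 0.832 with a counting interval of 0.338 to 2.01. The log2 fold change was -0.26 (SE 0.59), from -0.75 without DMSO library 1 to 0.11 without DMSO library 2, and -0.63 without the libraries with KRT5 reads. Here 45.4% of all tested genes passed the test, 22% upward and 23.3% downward. Both groups were close to the level of 3 counts per library.

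The combination held 248-fold more STC1 than DMSO by summed counts (interval 145 to 466). The log2 fold change was 7.91 (SE 0.18, but 0.41 with DESeq2), or 7.59 without the libraries with KRT5 reads. In that comparison 74.3% of tested genes passed, 37.2% upward and 37.1% downward, and again 10 genes had a higher value than STC1. Against afatinib alone the ratio was 298 (interval 166 to 597). The log2 fold change was 8.17 (SE 0.18, but 0.44 with DESeq2), or 8.22 without those libraries. There 69.2% of genes passed, 33.4% upward and 35.8% downward, and 2 genes were above STC1. Romidepsin alone against afatinib alone gave a ratio of 279 (interval 156 to 560).

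STC1 was at much the same level with romidepsin alone as with both drugs. The ratio of combination to romidepsin was 1.07 by summed counts, with a counting interval of 1.02 to 1.12, and the means differed by 4.71 CPM. That difference is smaller than the SD of the romidepsin libraries, and the libraries of both groups overlapped, with romidepsin library 2 the highest of the 6. The log2 fold change was 0.08 (SE 0.08), or 0.13 without the libraries with KRT5 reads, in a comparison where 54.3% of all tested genes passed, 25.1% upward and 29.2% downward. The STC1 interaction, which is the log2 change with both drugs minus the sum of the log2 changes with each, was 0.33 (SE 0.60). It ranged from -0.05 without DMSO library 2 to 0.86 without DMSO library 1, and was 0.76 without the libraries with KRT5 reads. For all genes, 30.2% passed the interaction test, 11.7% above and 18.5% below 0.

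**Figure D1:**
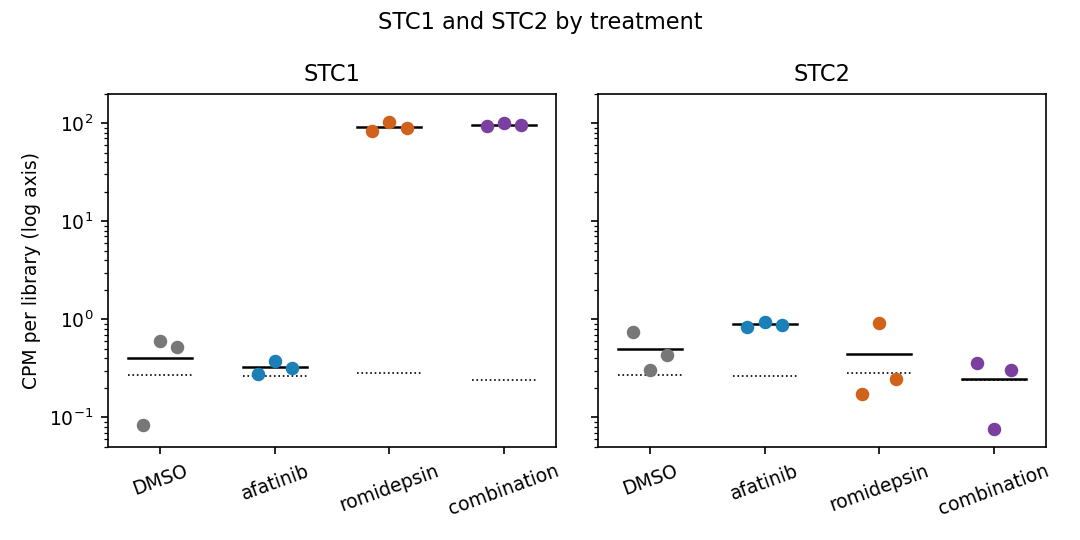
CPM of STC1 (left) and STC2 (right) in each library by treatment, on a log axis. Points are libraries, bars are means of 3 libraries, and dotted lines mark the mean level of 3 counts in each group. STC1 lies between 83.2 and 102.9 CPM in all 6 libraries with romidepsin and below 1 CPM in the others, while STC2 stays below 1 CPM in all 12.

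Among all tested genes, STC1 moved from the bottom to the upper part of the range of expression. Per kilobase of exon, its mean level was 0.0980 CPM in DMSO and 0.0787 CPM in afatinib, at or above 4.75% and 2.79% of the 16208 tested genes. It was 22.2 CPM per kilobase in romidepsin and 23.3 in the combination, at or above 87.9% and 89.4% of tested genes. Even so, 1954 genes were higher per kilobase in romidepsin and 1725 in the combination.

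The levels of other genes as low as STC1 in DMSO are given beside it as a description only, since STC1 was chosen by its levels, and it passed the filter on low counts only through the libraries with romidepsin. In DMSO, 770 tested genes, STC1 included, were at or below the mean STC1 level per kilobase. With romidepsin 52 of these genes were at 1 CPM per kilobase or more, 6 at 5 or more, 3 at 10 or more and 2 at 20 or more. The latter were HIST1H2APS3, a histone pseudogene whose near-identical relatives make its count uncertain, with 27.99 ± 3.99 CPM per kilobase, and STC1 with 22.2 ± 2.45. LINC02158, a long noncoding RNA, came next with 13.9 ± 1.23.

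With the combination 85 of the 770 genes were at 1 CPM per kilobase or more, 7 at 5 or more and 2 at 10 or more, and STC1 was the only one at 20 or more, with 23.3 ± 0.975. HIST1H2APS3 was at 3.63 ± 1.19 and LINC02158 at 5.95 ± 1.07 CPM per kilobase in the combination. With afatinib 3 of the 770 genes were at 1 CPM per kilobase or more and none at 5 or more.

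**Figure D2:**
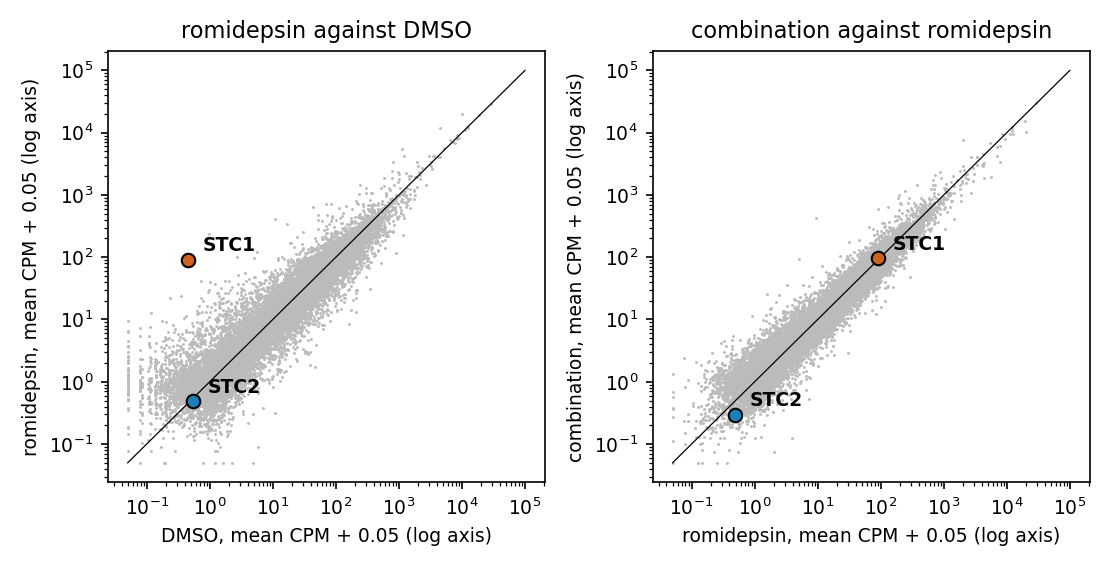
Mean CPM of every tested gene, in romidepsin against DMSO (left) and in the combination against romidepsin (right). Each grey point is 1 gene, 0.05 CPM was added for the log axes, and the line marks equal levels. STC1 lies far above the line on the left (0.405 and 91.7 CPM) and on it on the right (91.7 and 96.4 CPM). STC2 lies close to the line in both.

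STC2 was barely detected in any group and held at most 11 counts in a library. It lies on the minus strand of chromosome 5 at 173314713 to 173329503 (GRCh38), has 6128 exonic bases, and overlaps no other gene of the table. The DMSO libraries held 9, 3 and 5 STC2 counts, or 0.750, 0.303 and 0.438 CPM. The afatinib libraries held 9, 10 and 11 counts, or 0.829, 0.947 and 0.883 CPM. Each afatinib library was above each DMSO library, with a narrow gap between 0.750 and 0.829 CPM. Between these groups 45.4% of all tested genes passed the test, 22% upward and 23.3% downward. The share of all genes with libraries set apart in this way was not counted.

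The romidepsin libraries held 2, 8 and 3 STC2 counts, or 0.172, 0.917 and 0.245 CPM, and the combination libraries held 4, 1 and 4 counts, or 0.361, 0.0764 and 0.306 CPM. Romidepsin library 2 stood apart from the other 2 romidepsin libraries and lay within the afatinib range. The mean STC2 level was 0.886 ± 0.0588 CPM in afatinib, 0.497 ± 0.230 in DMSO, 0.444 ± 0.411 in romidepsin and 0.248 ± 0.151 in the combination (SD, n = 3 libraries each). In that order, DMSO overlapped with romidepsin and romidepsin with the combination.

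By summed counts, STC2 was at a ratio of 1.74 in afatinib to DMSO, with a counting interval of 0.927 to 3.35 that includes equal levels. The log2 fold change was 0.79 (SE 0.58), from 0.56 without DMSO library 2 to 1.24 without DMSO library 1, and 1.04 without the libraries with KRT5 reads. Romidepsin to DMSO gave a ratio of 0.781 (interval 0.349 to 1.71) and a log2 fold change of -0.31 (SE 0.67). That value was -1.23 without romidepsin library 2, 0.15 without DMSO library 1 and -0.05 without the libraries with KRT5 reads, so that its direction rests on single libraries.

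STC2 had its lowest mean in the combination, where all 3 libraries were below all 3 afatinib libraries. This too is a description, since STC2 passed the filter partly through the afatinib libraries. Between the combination and afatinib, 69.2% of all tested genes passed the test, 33.4% upward and 35.8% downward. Genes with libraries set apart in this way were not counted. The ratio of combination to afatinib was 0.273 (interval 0.114 to 0.589), and the log2 fold change -1.82 (SE 0.65), from -2.15 to -1.39 when single libraries were left out and -2.12 without the libraries with KRT5 reads. Combination to DMSO gave 0.473 (interval 0.186 to 1.12) and a log2 fold change of -1.03 (SE 0.71), with overlapping libraries. It was -0.55 without DMSO library 1, -1.36 without combination library 1 and -1.08 without the libraries with KRT5 reads. Combination to romidepsin gave 0.606 (interval 0.229 to 1.53), with a log2 fold change of -0.72 (SE 0.75) that was 0.20 without romidepsin library 2, -1.13 without romidepsin library 1 and -1.04 without the libraries with KRT5 reads. The STC2 interaction was -1.52 (SE 0.95), from -1.94 without DMSO library 1 to -0.60 without romidepsin library 2, and -2.07 without the libraries with KRT5 reads.

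The pair differed from each other by treatment. Per kilobase of exon and by summed counts, STC1 stood to STC2 at a ratio of 1.13 in DMSO (interval 0.506 to 2.48) and 0.544 in afatinib (interval 0.246 to 1.12), and both intervals include equal levels. The ratio was 337 in romidepsin (interval 197 to 634) and 593 in the combination (interval 312 to 1298). Since STC2 counts were 13 and 9 in these groups, the size of both ratios is imprecise.

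Of the partners of the stanniocalcins in the IGF system, few were detected. The protease genes PAPPA and PAPPA2 reached at most 4 and 6 counts in a library, IGFBP4 at most 3, and the ligands IGF1 and IGF2 at most 2 and 1 counts, and none of them was tested. Of the 16 genes listed for this system, 5 passed the filter on low counts. With romidepsin 2 of these rose and 3 fell, with a median log2 fold change of -0.49 beside a median of 0.00 over all tested genes, and with afatinib 3 rose and none fell. All 5 were called with romidepsin beside 62.6% of all tested genes, and 60% with afatinib beside 45.4%. Without romidepsin library 3 only 1 rose with romidepsin, and without DMSO library 2 there was 1 that fell with afatinib. IGF2R, a receptor that clears IGF2 and has been described as a binding partner of stanniocalcin, rose from 203 ± 8.32 CPM in DMSO to 359 ± 15.8 with romidepsin and 347 ± 21.1 with the combination (SD, n = 3). Its log2 fold change with romidepsin was 0.83 (edgeR adjusted p = 7.7e-18). IGFBP3, an IGF binding protein, fell with romidepsin by 1.40 on the log2 scale (edgeR adjusted p = 4.3e-25).

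Stanniocalcins are best known for calcium and phosphate handling. Of 16 genes of calcium entry and ER calcium, 7 rose and 7 fell with romidepsin (median 0.33), or 87.5% called beside 62.6% of all tested genes. STIM1, the ER calcium sensor that opens store-operated channels, and which STC2 is known to bind, rose from 129 ± 5.99 to 207 ± 8.52 CPM (log2 fold change 0.68, edgeR adjusted p = 6.1e-14), and ITPR1, a calcium release channel, fell by 1.21. Of 11 tested genes of calcium and phosphate transport out of 19, 7 rose and none fell with romidepsin (median 0.56), or 1 fell without romidepsin library 1. The 63.6% called in this list is near the 62.6% of all tested genes. CASR, the calcium-sensing receptor, rose from 1.49 ± 0.725 to 18.02 ± 1.62 CPM (log2 fold change 3.56, edgeR adjusted p = 1.6e-19). The combination held 8.46 ± 0.561 CPM of CASR, below romidepsin alone (log2 fold change -1.10, edgeR adjusted p = 1.7e-07). XPR1, a phosphate exporter, and ATP2B1, a calcium pump of the plasma membrane, rose with romidepsin by 1.21 and 1.17.

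STC1 and STC2 belong to the known hypoxia responders. Of 17 tested hypoxia targets out of 20, 11 rose and 3 fell with romidepsin (median 0.63), or 82.4% called beside 62.6% of all tested genes. With afatinib 5 rose and 8 fell (median -0.05), or 76.5% called beside 45.4%. The 8 became 5 without DMSO library 1 or afatinib library 1, and also with scaling by library size only, and 3 without the libraries with KRT5 reads. NDRG1, a gene of stress and differentiation, rose from 4.93 ± 0.869 to 96.5 ± 4.45 CPM with romidepsin, and DDIT4, an inhibitor of mTORC1, rose from 83.5 ± 10.9 to 711 ± 59.9 CPM. Their log2 fold changes were 4.29 and 3.10 (edgeR adjusted p = 2.7e-34 and 2.7e-31), against 7.83 for STC1. VEGFA, the angiogenic factor, fell by 0.68 with romidepsin. Among 9 tested genes of the HIF pathway out of 10, 5 rose and 2 fell with romidepsin (77.8% called), or 1 fell without DMSO library 3. EPAS1, which encodes HIF-2 alpha, rose from 5.61 ± 0.926 to 122 ± 4.21 CPM (log2 fold change 4.45, edgeR adjusted p = 3.7e-36), and HIF1A had a log2 fold change of 0.34 (edgeR adjusted p = 2.1e-06). In the combination EPAS1 was at 54.9 ± 1.01 CPM and STC1 at 96.4 ± 4.03 CPM. A link between their levels was not tested.

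The lists of the ER stress response, in which STC2 is a known target, differed from each other. With afatinib 14 of 15 tested ATF4 targets rose and none fell (median log2 fold change 2.01), or 93.3% called beside 45.4% of all tested genes. With romidepsin 5 rose and 6 fell (median -0.06), 73.3% beside 62.6%, and with the combination against DMSO 11 rose and 3 fell (median 1.46), 93.3% beside 74.3%. ATF4 itself was at 1300 ± 11.8 CPM in DMSO, 2298 ± 31.03 in afatinib, 912 ± 25.0 with romidepsin and 1871 ± 22.4 with both drugs. CHAC1, an enzyme that degrades glutathione, rose by 4.59 on the log2 scale with afatinib and by 6.95 with the combination (edgeR adjusted p = 1.3e-34 and 2.4e-44). STC2 had a mean of 0.886 CPM in afatinib and 0.248 CPM in the combination, and a link to these genes was not tested. Of 16 tested ER stress sensors and factors out of 17, 10 rose with afatinib and none fell (62.5% called), and 9 rose and 4 fell with romidepsin (81.2% called). DDIT3, a pro-apoptotic transcription factor of this list, had a log2 fold change of 3.15 in afatinib and 4.10 in the combination. Of 15 ER chaperones, 4 rose and 10 fell with afatinib (93.3% called), and 10 rose and 1 fell with romidepsin (73.3% called). The 10 that fell with afatinib were 6 without the libraries with KRT5 reads, and the 1 that fell with romidepsin was 2 without romidepsin library 1 and 0 without romidepsin library 3.

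Other secreted factors moved in both directions. Of 20 tested hormone and growth factor genes out of 35, 10 rose and 4 fell with romidepsin (median 0.38; 70% called beside 62.6% of all tested genes). With afatinib 9 rose and 3 fell (median 0.40; 60% called beside 45.4%), or 4 rose without the libraries with KRT5 reads. METRNL, a secreted relative of meteorin, was at 0.0876 ± 0.152 CPM in DMSO, 0.646 ± 0.458 in afatinib, 2.25 ± 0.324 with romidepsin and 4.595 ± 0.410 with both drugs. It rose in all 3 comparisons with DMSO (edgeR adjusted p = 0.0037 with afatinib, 1.3e-08 with romidepsin and 9.7e-13 with both), and the call with afatinib was lost without the libraries with KRT5 reads. CHGB, a granin of secretory granules, rose from 3.16 ± 1.12 to 14.2 ± 1.08 CPM with romidepsin (log2 fold change 2.18, edgeR adjusted p = 2.4e-13). LIF, a cytokine of the interleukin-6 family, fell from 897 ± 14.5 to 119 ± 8.97 CPM. INHBE, a subunit of activin E, and ADM2, a peptide hormone, rose with afatinib by 4.79 and 3.44 on the log2 scale and were lower in the combination than in afatinib, by log2 fold changes of -2.94 and -1.11. SCG2, another granin, was highest in the combination, at 91.1 ± 2.22 CPM against 19.4 ± 3.04 in DMSO. Of 7 tested genes of mitochondrial uncoupling and superoxide defence out of 11, processes to which STC1 has been linked, 5 rose and none fell with romidepsin (71.4% called), led by SOD2 at 2.46. Of the 11 histone deacetylase genes, the family romidepsin inhibits, 6 rose and 3 fell with romidepsin (81.8% called), with HDAC9 at 1.73 and HDAC7 at -1.43.

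**Figure D3:**
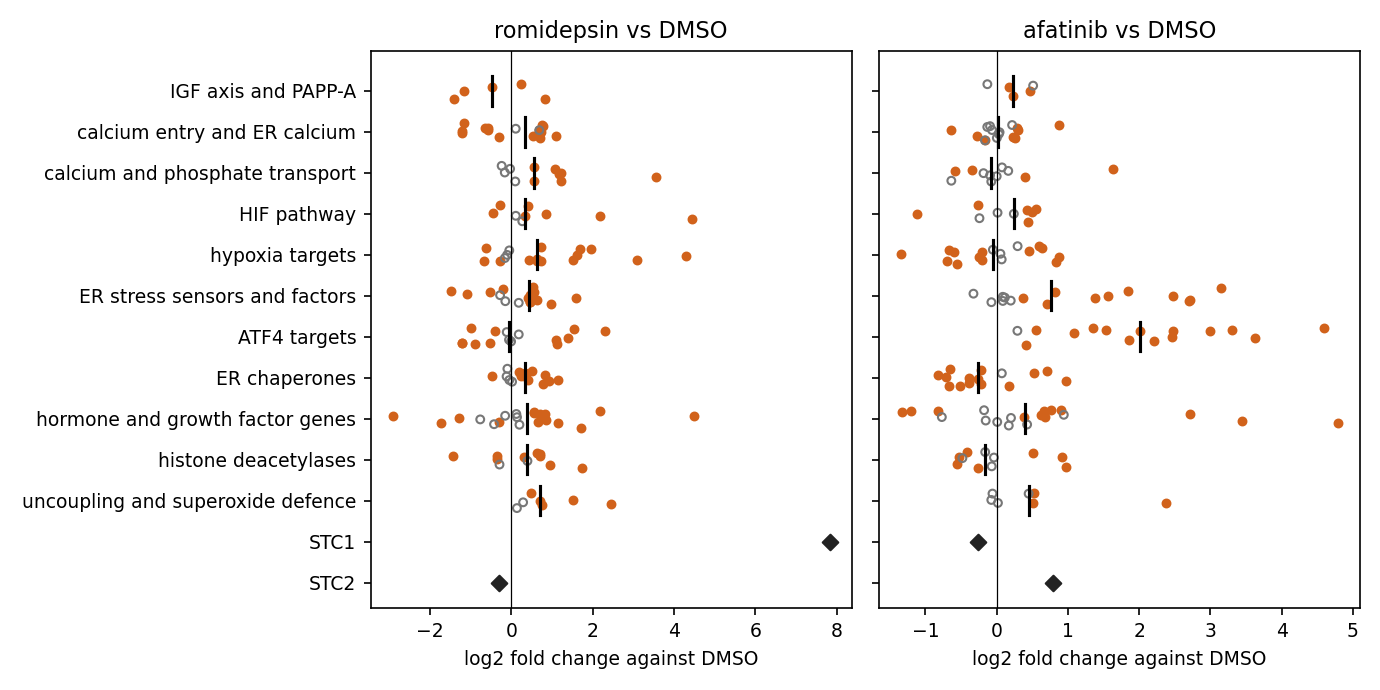
Log2 fold change of each tested gene of the 11 lists, with romidepsin (left) and afatinib (right) against DMSO. Filled points passed edgeR's test at an adjusted p of 0.05, open points did not, short bars are list medians, and diamonds are STC1 and STC2, which were not tested. STC1 at 7.83 lies to the right of every listed gene with romidepsin, and the ATF4 targets have a median of 2.01 with afatinib.

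No tested gene near STC1 had a log2 fold change of its size with romidepsin. Of 19 other genes counted within 500 kb, 10 were tested. AC104561.1 and AC104561.2, both known by clone names and at up to 2.79 CPM, rose with log2 fold changes of 2.68 and 2.77. AC023202.1 and AC120193.1 fell by 3.67 and 2.39, and ENTPD4, an ectonucleotidase, fell by 0.30, a call lost without DMSO library 3 (edgeR adjusted p = 0.095). SLC25A37, a mitochondrial iron importer at 111 CPM in DMSO, had a log2 fold change of -0.08, ADAM28 had -0.23 and LOXL2 had 0.56, and none of these 3 passed. Counting used no strand, so reads of overlapping antisense genes among these neighbours are not separated. Around STC2, 7 of 29 genes were tested, and with romidepsin ERGIC1 rose by 0.55 while BNIP1 and BOD1 fell by 1.18 and 0.50, calls lost without the libraries with KRT5 reads.

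Across the 12 libraries, the genes most like STC1 shared its pattern of 2 low and 2 high groups. The search covered 10273 tested genes with a mean of at least 5 CPM, leaving out genes known by clone names. Among them, the highest Pearson correlation of log2 CPM with STC1 was that of IL15, a cytokine of lymphocytes (r = 0.996). Next came FAM43A, ENPP2, TNFAIP3, TNFSF9 and KIF3B (r = 0.994 to 0.993). These values describe libraries that fall into a set with romidepsin and a set without, so that they say little beyond this split. IL15 was at 17.2 ± 2.13 CPM in DMSO, 15.2 ± 0.857 in afatinib, 74.1 ± 3.71 with romidepsin and 75.1 ± 5.41 with both drugs, a smaller change than that of STC1 on the same course. ENPP2, which makes lysophosphatidic acid, went from 1.69 ± 0.172 CPM in DMSO to 40.8 ± 4.15 in romidepsin and 38.7 ± 0.765 in the combination.

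In the size of the 3 changes against DMSO, the genes named as most like STC1 were LINC01554 (distance 2.55 on the log2 scale), IL22 (2.64), SMIM10L2B (3.01, uncertain because a near-identical copy shares its reads), LINC01619 and FAM43A. IL22, a cytokine that acts on epithelia, was at 1.84 ± 1.22 CPM in DMSO, 202 ± 1.60 in romidepsin and 90.3 ± 5.30 in the combination. FAM43A was the only gene named by both measures, at 10.8 ± 2.08 CPM in DMSO, 418 ± 22.2 in romidepsin and 359 ± 44.6 in the combination. For STC2, with 1 to 11 counts per library, the same measures carry no information.

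Markers of other cell types were set beside STC1. The 8 fibroblast markers summed to 175 to 201 CPM in DMSO, 101 to 105 in afatinib, 27.0 to 33.1 with romidepsin and 15.4 to 18.03 with both drugs. COL1A1 and COL3A1 held most of this sum, at 119 and 63.1 CPM in DMSO and 14.7 and 13.5 with romidepsin. COL1A2 and PDGFRA went from 0.494 and 0.319 CPM in DMSO to 1.19 and 0.373 with romidepsin. PDGFRB and FAP went from 0.174 and 1.03 CPM in DMSO to 1.22 and 3.14 in afatinib. DCN and LUM were at 0 counts in all 12 libraries. The 6 endothelial markers summed to at most 2.18 CPM in any library. The 7 monocyte and macrophage markers summed to 6.66 to 7.50 CPM in DMSO, 5.44 to 6.10 in afatinib, 29.0 to 36.3 with romidepsin and 16.1 to 18.8 with both drugs. CSF1R held most of this sum, at 6.97 CPM in DMSO, 32.6 with romidepsin and 14.5 with both drugs. CD14 was at 0.238 CPM in DMSO, 0.376 with romidepsin and 2.80 with both drugs, while S100A8 was at 0 and LYZ had at most 2 counts. The 11 keratinocyte markers summed to 259 to 308 CPM in DMSO and 199 to 205 in romidepsin, and the 5 B cell markers to 3.50 to 6.16 and 5.04 to 7.30 CPM. The 13 T cell markers summed to 749 to 800 CPM in DMSO, 621 to 660 in afatinib, 233 to 258 with romidepsin and 179 to 198 with both drugs. The part of these markers in the STC1 levels was not tested, and in bulk RNA fewer cells of a type and less RNA per cell cannot be told apart.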

How the data were processed

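RNA sequencing of 12 libraries was analysed, 3 for each of 4 treatments, grouped by the treatment in their labels. The deposited values are unscaled whole-number counts, by gene name, that the authors made from read pairs with featureCounts 2.0.0 and GENCODE 31, without multi-mapping reads and without a strand option, per the file headers. STAR 2.7.9a, GRCh38.p12 and DESeq2 1.38.1 are named in the submitters' processing notes. Reads shared by near-identical genes are therefore missing. A second deposited table was not used, since its values are codes that do not follow the size of the counts.

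Genes were kept with filterByExpr, which left 16208 of 59050. STC1 and STC2 both passed, STC1 through the libraries with romidepsin and STC2 through its afatinib libraries and romidepsin library 2. Counts were scaled by TMM and fitted with edgeR 4.0.16 (R 4.3.3; glmQLFit, robust, and glmQLFTest, two-sided) on 4 group means over all 12 libraries, and p-values were adjusted by Benjamini-Hochberg over the tested genes, with calls at 0.05. CPM are TMM-scaled. Counting intervals are exact 95% intervals of summed counts or of their ratio. The SE of an edgeR log2 fold change is its absolute value divided by the square root of the F statistic. STC1, STC2, the gene lists and the alternatives were chosen with earlier results of these data known. Named genes were up to 4 per list and contrast, ranked by the size of the log2 fold change of genes that passed at a mean of at least 1 CPM, known partners of stanniocalcins, tested genes within 500 kb, and the 6 most like each stanniocalcin by each of both measures. Likeness was searched among tested genes with a mean of at least 5 CPM, leaving out genes known by clone names. HIST1H2APS3 and LINC02158 were named after their values were seen. Some genes that the rule names are not reported here. Alternatives were other scalings and filters, DESeq2 1.42.0, a prior count of 2, a replicate block, fits on the compared groups only, and fits without single libraries or without the 4 libraries with KRT5 reads. The fit was tested on simulated data. For romidepsin against DMSO, 58% of simulated 1.5-fold changes and 100% of 8-fold changes were recovered. Changes were set only in genes with more counts than STC2, or than STC1 in DMSO, so the values of these 2 genes are not covered.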

Additional observations from a re-analysis of the deposited data

Results flagged for a closer look

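The interaction was looked up for 52 of the tested genes named beside STC1 and STC2, a set without the fibroblast markers. Of these 52 genes, 25 passed edgeR's interaction test at an adjusted p of 0.05. For these the effect of one drug differed with the other drug present. Of all tested genes 30.2% passed, 18.5% below and 11.7% above 0. Many of the 52 were named because they passed this or another comparison, so their share cannot be set against that of all genes. The interaction is the log2 change with both drugs minus the sum of the log2 changes with each. It was below 0 for 17 of the 25 genes. These were IGF2R (-0.28), IGFBP3 (-0.35), STIM1 (-0.36), ITPR1 (-0.90), XPR1 (-0.30), HIF1A (-0.51), EPAS1 (-1.39), NDRG1 (-0.98), DDIT4 (-1.93), VEGFA (-0.41), LIF (-0.74), INHBE (-2.17), ADM2 (-1.68), AC104561.1 (-1.86), HIST1H2APS3 (-5.60), LINC02158 (-3.45) and CSF1R (-0.81). It was above 0 for 8, namely ATF4 (0.21), CHAC1 (0.95), DDIT3 (1.09), SCG2 (2.85), SOD2 (1.05), HDAC7 (0.39), AC023202.1 (1.75) and CD14 (2.46). The value of HIST1H2APS3, which had no count in DMSO, depends on the prior count.

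The call of ATF4 was lost without afatinib library 2 or 3, romidepsin library 2 or combination library 1 and without the libraries with KRT5 reads, and that of AC104561.1 without DMSO library 3 or afatinib library 2. That of INHBE was lost without romidepsin library 1 (edgeR adjusted p = 0.093), and that of IGF2R without the libraries with KRT5 reads and with a filter of at least 1 count. The call of XPR1 was lost with DESeq2 and without afatinib library 1 or 3, romidepsin library 1 or combination library 1 or 3. That of CD14 was lost without DMSO library 1 or 3, afatinib library 2 or 3, romidepsin library 1 or 3 or combination library 1. That of LINC02158 was lost without afatinib library 3, and that of HIST1H2APS3 without any 1 of the DMSO libraries or afatinib library 2. Without the libraries with KRT5 reads, the calls of these 4 genes and of CHAC1, CSF1R and VEGFA were lost too, and with a filter of at least 1 count those of XPR1, CD14 and HIST1H2APS3. Fits without the libraries with KRT5 reads keep only DMSO library 3 as control. For STC1 the interaction was 0.33 with an SE of 0.60, and for STC2 -1.52 with an SE of 0.95, both without a test.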

How the results depend on the processing

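The log2 fold change of STC1 with a prior count of 2 was 7.59 for the combination against afatinib, against 8.17 as reported, since that setting draws the 11 afatinib counts upward. Against DMSO, the same setting gave STC1 7.34 for romidepsin and 7.42 for the combination, instead of 7.83 and 7.91. Without the 4 libraries with KRT5 reads, 4162 genes passed with afatinib against DMSO (2164 higher and 1998 lower) instead of 7351, from fewer libraries. When each library was left out in turn, the STC1 log2 fold change was 7.34 to 8.21 for romidepsin, 7.45 to 8.27 for the combination and -0.75 to 0.11 for afatinib against DMSO, and 8.10 to 8.27 for the combination against afatinib. Genes passing were 9594 to 10294 for romidepsin and 6450 to 7473 for afatinib against DMSO. Scaling by library size only moved the median of all genes with afatinib from 0.00 to 0.10 and the share of its calls that were higher from 48.6% to 62.2%. Deviations of libraries with the same replicate number did not go together (r from -0.09 to 0.09 over 18 pairs, with 4 of 12 libraries best matched to their own number), so the numbers were not taken as pairs. With the number as a replicate block, the STC1 value for romidepsin was 7.83, and 10050 genes passed instead of 10139. STC1 for afatinib against DMSO gave no value in a fit on those groups alone, and STC2 gave none under the filter of 1 CPM in 3 libraries or in any such fit. Of the 328 gene and contrast calls of named genes, 50 lost the call under some setting, and none reversed. The low counts of STC2 in all groups, and of STC1 without romidepsin, limit the precision.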
